A study of Mus musculus with 6 samples.

Results

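The genes described here are 10 components of transforming growth factor beta (TGF-beta) signalling: the ligand genes Tgfb1, Tgfb2 and Tgfb3, the receptor genes Tgfbr1, Tgfbr2 and Tgfbr3, the signal transducer genes Smad2 and Smad3, the inhibitor gene Smad7 and the latency gene Ltbp1. They were taken by symbol from the 55401 genes of the expression table, and each symbol matched 1 gene. Their messenger RNA was measured in mouse hepatic stellate cells, the pericytes of the liver sinusoid, from S100a16+/- mice (3 libraries) and from wild-type (WT) mice (3 libraries), both on the C57BL/6J background. S100a16+/- mice carry 1 intact copy of S100a16, which encodes an EF-hand calcium-binding protein. All cells had been kept for 7 days in medium with fetal bovine serum, which activates stellate cells, so there is no unactivated group. The sources used here do not say how the S100a16 allele was made, nor the age of the mice, nor whether each library is a separate animal, so p-values reflect how these particular libraries spread, which may be technical.

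TGF-beta is made as a latent precursor, which LTBP1 tethers to the extracellular matrix until it is released. The free ligand binds TGFBR2, often handed over by the co-receptor TGFBR3 (betaglycan), and TGFBR2 then activates TGFBR1. TGFBR1 phosphorylates SMAD2 and SMAD3, which enter the nucleus with SMAD4, while SMAD7 blocks the receptor and is itself a target of the pathway. In the liver TGF-beta drives stellate cells to become collagen-producing myofibroblasts, and macrophages and endothelial cells also make and receive it.

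The libraries held 61979103 to 76291481 counts, and S100a16 was lower in every S100a16+/- library, at 18, 17.7 and 30.0 FPKM (fragments scaled to gene length and library size) against 57.7, 58.8 and 56.8 FPKM in the WT libraries. S100a16+/- replicate 3 stood apart from S100a16+/- replicates 1 and 2. Its Pearson correlation across genes was 0.930 and 0.929 with them, against 0.987 between those replicates. With the WT libraries it was 0.946 to 0.949, so replicate 3 was nearer to WT than to its own group. S100a16+/- replicates 1 and 2 correlated with WT at 0.949 to 0.957. They departed from WT too: the chi-square per gene between counts was 424 to 496, against 257 to 293 for replicate 3 with WT. Replicate 3 alone had Xist, at 32.2 FPKM against at most 0.0323 FPKM elsewhere, while Ddx3y was at 0.0102 FPKM against 12.1 to 15.8 FPKM elsewhere. This is the pattern of a female library among male ones, so in replicate 3 sex and whatever else sets it apart cannot be told apart; the labels do not give the sex. The 15 stellate cell markers summed to 63.7 FPKM in it, against 386 and 369 FPKM in S100a16+/- replicates 1 and 2 and 358 to 419 FPKM in the WT libraries. The collagen genes Col1a1 and Col1a2 held most of this sum in every library, so it largely follows collagen expression. In replicate 3 the log2 ratios of the 9 tested stellate markers to their WT means ran from -4.58 for Lum to -0.55 for Dcn. Of the 15 stellate markers 6, Lrat, Reln, Lhx2, Colec11, Rgs5 and Ngfr, were under 1 FPKM in every library, while Col1a1, Des and Dcn were present. Macrophage markers (15 of 15 tested) and endothelial markers (12 of 15 tested) were present too, and at higher sums. They summed to 10475 to 18281 FPKM and 826 to 2016 FPKM per library, though such sums do not give the share of each cell type. A difference in a mixture can lie in any of its cells, and fewer cells of a type and less RNA per cell cannot be told apart. The 10 genes are therefore described with all 6 libraries and without S100a16+/- replicate 3. Over all 12766 genes tested, 364 rose and 206 fell (edgeR quasi-likelihood test, Benjamini-Hochberg adjusted p under 0.05), or 282 and 252 when counts were scaled by library totals alone.

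Of the 10 TGF-beta genes, all tested, Smad3 fell and the other 9 did not pass the test. That is 1 of 10, beside 4.46% of all genes tested (2.85% higher and 1.61% lower). The median log2 change of the 10 genes was -0.28, against 0.00 over all genes tested. Their groups did not overlap in FPKM for 3, Smad3, Tgfbr1 and Tgfb3, each lower in S100a16+/-, beside 31.4% of all genes tested (18.9% lower). Without S100a16+/- replicate 3, 8 of the 10 were called, 6 lower and 2 higher, beside 32.3% of all genes tested (16.5% lower and 15.8% higher). That fit rests on only 2 S100a16+/- libraries. With the other settings, the count of the 10 genes called and the share of all genes called were 1 and 4.46% with RLE size factors, 2 and 4.18% with library totals, 2 and 14.8% with DESeq2, 2 and 3.97% or 3.69% with limma, and 0 and 0.858% with no filter. None of the 10 was called with the replicate number as a block (0% of all genes) or when 1 of the other 5 libraries was left out (0.539%, 0.373%, 0.286%, 0.239% and 0.199%). The members' counts ran from 766 to 28621 per library, and no overlapping annotated gene held more than 0.165% of a member's counts.

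**Figure D1:**
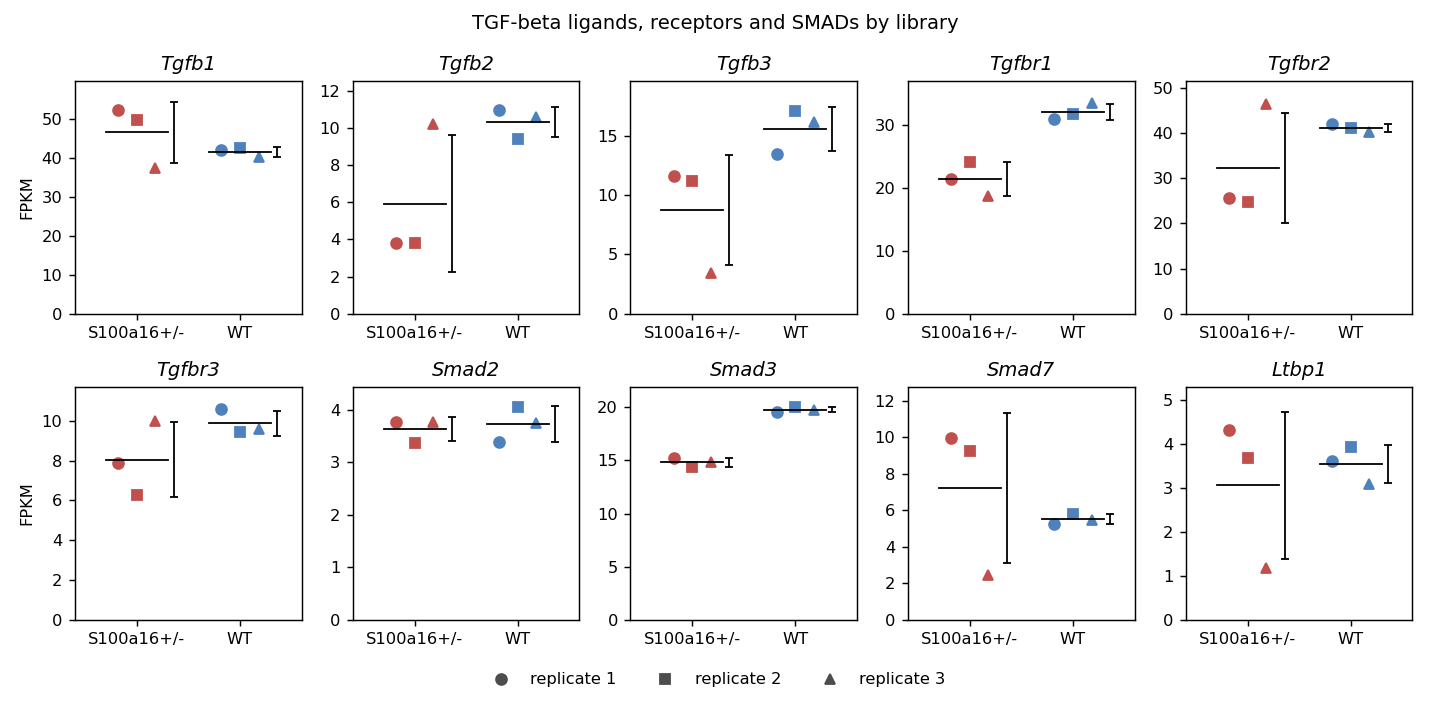
FPKM of the 10 genes in each library (marker shape gives the replicate), with the group mean as a line and its SD as a bar beside it (n = 3 per group). Smad3 lies in narrow bands of 14.4 to 15.2 in S100a16+/- and 19.6 to 20.0 in WT, whereas S100a16+/- replicate 3 lies far from replicates 1 and 2 for Tgfb2, Tgfb3, Tgfbr2, Smad7 and Ltbp1.

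The promoters of 4 of these genes are shown, picked by their values for 2 of the patterns among the 10 genes. Smad3 and Tgfbr1 were lower in all 3 S100a16+/- libraries, and Tgfb2 and Tgfbr2 were lower in replicates 1 and 2 only. Tgfb3 also had the first pattern and Tgfbr3 the second, and neither is shown, so these windows cannot tie a motif to a pattern. Each line is the 250 bases before the RefSeq start on GRCm38.p6, read 5′ to 3′ on the gene's strand. Capitals mark the short SMAD-binding core CAGAC, the GC box GGGCGG and the TATA motif TATAAA, searched on both strands with overlaps allowed. The windows are chr9:63757995-63758244 on the minus strand for Smad3, chr4:47352972-47353221 on the plus strand for Tgfbr1, chr1:186705990-186706239 on the minus strand for Tgfb2 and chr9:116175364-116175613 on the minus strand for Tgfbr2.
Smad3 promoter: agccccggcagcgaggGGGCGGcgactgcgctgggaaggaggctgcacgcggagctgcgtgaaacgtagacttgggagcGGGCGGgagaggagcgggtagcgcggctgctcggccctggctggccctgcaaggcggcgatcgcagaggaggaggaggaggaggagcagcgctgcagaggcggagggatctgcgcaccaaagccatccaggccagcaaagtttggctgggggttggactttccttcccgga
Tgfbr1 promoter: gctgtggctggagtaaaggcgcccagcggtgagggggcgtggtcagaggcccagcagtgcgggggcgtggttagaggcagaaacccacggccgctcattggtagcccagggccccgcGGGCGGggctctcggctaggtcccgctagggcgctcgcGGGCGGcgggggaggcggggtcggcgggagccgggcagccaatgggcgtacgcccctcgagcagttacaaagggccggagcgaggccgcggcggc
Tgfb2 promoter: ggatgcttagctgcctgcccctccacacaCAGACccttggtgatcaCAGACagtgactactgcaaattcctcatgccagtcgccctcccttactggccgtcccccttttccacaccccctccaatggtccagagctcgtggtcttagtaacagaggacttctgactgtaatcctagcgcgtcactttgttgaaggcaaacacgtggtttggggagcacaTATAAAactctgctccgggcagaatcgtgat
Tgfbr2 promoter: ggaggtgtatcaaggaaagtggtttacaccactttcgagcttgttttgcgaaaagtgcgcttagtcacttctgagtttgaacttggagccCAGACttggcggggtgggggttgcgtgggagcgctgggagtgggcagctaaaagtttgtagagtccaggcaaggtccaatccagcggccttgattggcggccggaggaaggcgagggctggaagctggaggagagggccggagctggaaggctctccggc
The Smad3 and Tgfbr1 windows each held 2 copies of GGGCGG and no CAGAC, and were 69.2% and 74.8% G or C. The Tgfb2 window held 2 copies of CAGAC and 1 of TATAAA, and the Tgfbr2 window held 1 copy of CAGAC. Neither held GGGCGG, and they were 53.6% and 58.4% G or C. Of 32851 such windows in the mouse table, 42.2% held CAGAC, 32.7% GGGCGG and 12.4% TATAAA. A match describes the letters of the window and shows no binding.

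Among the ligands, Tgfb1 was the most abundant in every library. Tgfb1 (ENSMUSG00000002603, chromosome 7, 25687002 to 25705077, plus strand) had 52.3, 49.8 and 37.5 FPKM in S100a16+/- replicates 1 to 3, against 42.1, 42.5 and 40.1 FPKM in WT replicates 1 to 3. S100a16+/- replicates 1 and 2 stood above every WT library and replicate 3 below, so the groups overlapped. The means were 46.5 ± 7.94 FPKM in S100a16+/- and 41.6 ± 1.3 FPKM in WT (SD, n = 3 each), with a log2 change of 0.22 (SE 0.14) that did not pass (edgeR adjusted p = 0.442). Without S100a16+/- replicate 3 Tgfb1 was higher, with 0.36 as its log2 change (SE 0.04, edgeR adjusted p = 0.00269). Macrophages are a known source of TGF-beta 1, and the 15 macrophage markers summed to 17051, 18281 and 13341 FPKM in S100a16+/- replicates 1 to 3 and to 10475 to 11034 FPKM in the WT libraries. Of these markers 4 rose (Marco, Cd5l, Cd14 and Adgre1), none fell and none was at 0. The list did not move as one: with S100a16+/- replicate 3 omitted 7 markers were higher and 5 lower, the lower ones being C1qa, C1qb, C1qc, Mrc1 and Timd4 (C1qc at a log2 change of -0.53, edgeR adjusted p = 0.000481). Lyz2 had 9230, 10057 and 5460 FPKM in S100a16+/- replicates 1 to 3 and 4377 to 4595 FPKM in WT. That was most of the sum in S100a16+/- replicates 1 and 2, but not in replicate 3 or in WT. The part of macrophages in the Tgfb1 level was not tested.

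Tgfb2 (ENSMUSG00000039239, chromosome 1, 186622792 to 186705989, minus strand) was low in S100a16+/- replicates 1 and 2 alone. It had 3.80, 3.80 and 10.2 FPKM in S100a16+/- replicates 1 to 3, against 11, 9.41 and 10.6 FPKM in WT replicates 1 to 3. Replicates 1 and 2 averaged 36.7% of the WT level, and replicate 3, at 99.1%, was inside the WT range. The group means were 5.95 ± 3.72 FPKM in S100a16+/- and 10.3 ± 0.835 FPKM in WT (SD, n = 3 each; log2 change -0.76, SE 0.41, edgeR adjusted p = 0.347). Without replicate 3 it was lower, with -1.38 as its log2 change (SE 0.09, edgeR adjusted p = 0.000265), the largest change of the 10 genes in that fit.

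Tgfb3 (ENSMUSG00000021253, chromosome 12, 86056745 to 86079041, minus strand) had its highest S100a16+/- value under its lowest WT value. It had 11.6, 11.2 and 3.42 FPKM in S100a16+/- replicates 1 to 3, against 13.5, 17.1 and 16.2 FPKM in WT replicates 1 to 3. The difference was uneven: relative to the WT mean, replicates 1 and 2 had 74.3% and 71.5% and replicate 3 had 21.9%. The means were 8.73 ± 4.6 FPKM in S100a16+/- and 15.6 ± 1.88 FPKM in WT (SD, n = 3 each), with a log2 change of -0.78 (SE 0.46) that did not pass (edgeR adjusted p = 0.386). Without replicate 3 the change was smaller and passed, at -0.39 (SE 0.11, edgeR adjusted p = 0.0425).

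As a share of the summed FPKM of the ligand genes, which describes composition and was not tested, Tgfb1 made up 77.2%, 76.9% and 73.3% in S100a16+/- replicates 1 to 3, against 63.1%, 61.6% and 60.0% in WT replicates 1 to 3. The share of Tgfb1 was thus higher in all 3 S100a16+/- libraries, with a mean of 75.8% ± 2.17 against 61.6% ± 1.55 in WT (SD, n = 3 each). The shares of the other ligands varied within the S100a16+/- group. Tgfb2 had 5.61% and 5.86% in S100a16+/- replicates 1 and 2, 20.0% in replicate 3 and 13.6% to 16.6% in WT, while Tgfb3 had 17.1% and 17.2% in replicates 1 and 2, 6.70% in replicate 3 and 20.3% to 24.8% in WT. The summed ligand FPKM was 67.7, 64.8 and 51.1 in S100a16+/- and 66.6 to 69.1 in WT.

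**Figure D2:**
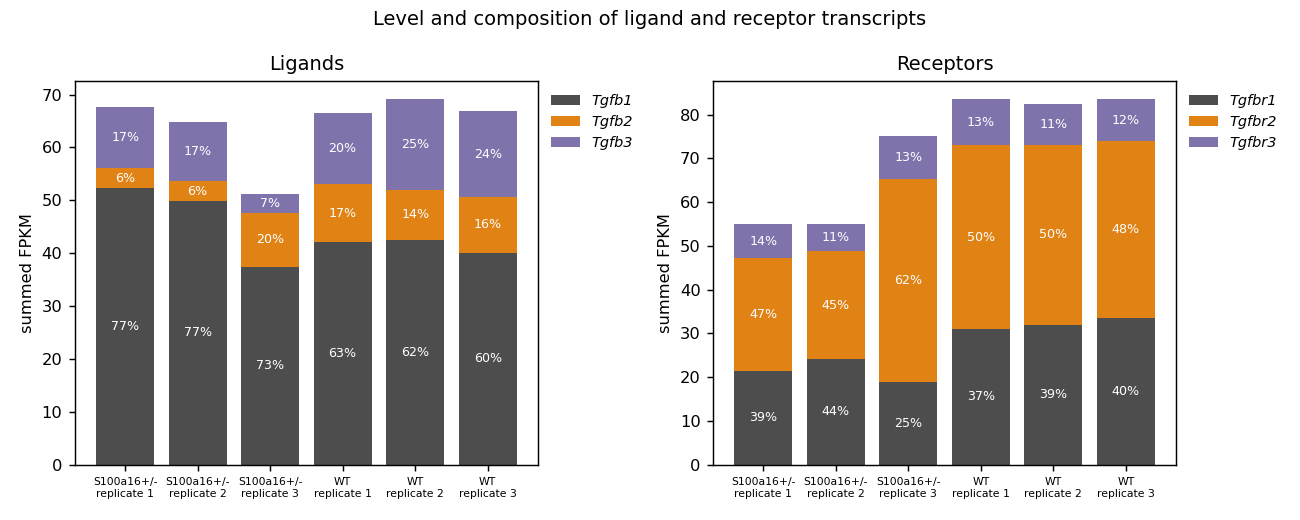
Summed FPKM of the ligand genes (left) and receptor genes (right) in each library, with each gene's share of the sum printed in its bar segment. Tgfb1 takes 73.3% to 77.2% of the ligand sum in S100a16+/- and 60.0% to 63.1% in WT, and the receptor sum is 55.0 and 55.1 FPKM in S100a16+/- replicates 1 and 2, 75.2 FPKM in replicate 3 and 82.6 to 83.6 FPKM in WT.

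Ltbp1, which anchors latent TGF-beta in the matrix (ENSMUSG00000001870, chromosome 17, 75005568 to 75392512, plus strand), had 4.31, 3.69 and 1.17 FPKM in S100a16+/- replicates 1 to 3, against 3.62, 3.92 and 3.08 FPKM in WT replicates 1 to 3. S100a16+/- replicate 3, at 33.2% of the WT mean, lay below the WT range, replicate 1 above it and replicate 2 within it. The log2 change of -0.15 (SE 0.46, edgeR adjusted p = 0.882) turned to 0.24 (SE 0.12, edgeR adjusted p = 0.203) without that library, and neither passed.

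Tgfbr1, the type I receptor (ENSMUSG00000007613, chromosome 4, 47353222 to 47414931, plus strand; promoter shown above with 2 GC boxes), was lower in every S100a16+/- library. It had 21.5, 24.1 and 18.8 FPKM in S100a16+/- replicates 1 to 3, against 31.0, 31.9 and 33.6 FPKM in WT replicates 1 to 3. The groups did not overlap, and the 3 S100a16+/- libraries stood at 66.8%, 75.1% and 58.6% of the WT mean. The means were 21.5 ± 2.65 FPKM in S100a16+/- and 32.1 ± 1.33 FPKM in WT (SD, n = 3 each). The log2 change of -0.53 (SE 0.11) lay just outside the threshold (edgeR adjusted p = 0.0609). With S100a16+/- replicate 3 omitted it passed (log2 change -0.43, SE 0.07, edgeR adjusted p = 0.00647) and, over all 6 libraries, with DESeq2 (log2 change -0.53, adjusted p = 0.000865) and with library totals in place of TMM (log2 change -0.59, edgeR adjusted p = 0.0409).

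Tgfbr2, the ligand-binding type II receptor (ENSMUSG00000032440, chromosome 9, 116084293 to 116175360, minus strand), was the most abundant receptor in every library. It had 25.7, 24.7 and 46.4 FPKM in S100a16+/- replicates 1 to 3, against 42.1, 41.2 and 40.3 FPKM in WT replicates 1 to 3. S100a16+/- replicates 1 and 2 were lower than every WT library and replicate 3 was higher than every WT library. The means were 32.3 ± 12.2 FPKM in S100a16+/- and 41.2 ± 0.903 FPKM in WT (SD, n = 3 each; log2 change -0.31, SE 0.24, edgeR adjusted p = 0.533). Without replicate 3 the log2 change was -0.64 (SE 0.04, edgeR adjusted p = 0.000256).

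Tgfbr3, the co-receptor betaglycan (ENSMUSG00000029287, chromosome 5, 107106570 to 107289629, minus strand), had 7.87, 6.27 and 10 FPKM in S100a16+/- replicates 1 to 3, against 10.6, 9.45 and 9.58 FPKM in WT replicates 1 to 3. Replicates 1 and 2 lay below the WT range and replicate 3 within it. The log2 change was -0.24 (SE 0.16, edgeR adjusted p = 0.455), and -0.42 without replicate 3 (SE 0.11, edgeR adjusted p = 0.0380). Together the receptor transcripts summed to 55.0, 55.1 and 75.2 FPKM in S100a16+/- and 82.6 to 83.6 FPKM in WT. In S100a16+/- replicate 3 Tgfbr2 made up 61.7% of that sum and Tgfbr1 25%, against 48.3% to 50.3% and 37.0% to 40.3% in WT.

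Smad3, which carries the receptor signal to DNA (ENSMUSG00000032402, chromosome 9, 63646767 to 63757994, minus strand; promoter shown above), was the only one of the 10 genes to pass the test over all 6 libraries. It had 15.2, 14.4 and 14.9 FPKM in S100a16+/- replicates 1 to 3, against 19.6, 20.0 and 19.8 FPKM in WT replicates 1 to 3. The groups did not overlap, and replicate 3, which differed from replicates 1 and 2 in most of the other genes, stood between them here. The means were 14.8 ± 0.420 FPKM in S100a16+/- and 19.8 ± 0.178 FPKM in WT (SD, n = 3 each), so S100a16+/- had 74.9% of the WT level. Smad3 fell, with a log2 change of -0.37 and an SE of 0.05 (edgeR adjusted p = 0.0251). With S100a16+/- replicate 3 omitted it was -0.36 (edgeR adjusted p = 0.00207). Omitting 1 of the other 5 libraries kept the size, at -0.39 and -0.35 without S100a16+/- replicates 1 and 2 and -0.37 without each WT library, but ended the call (edgeR adjusted p from 0.0906 to 0.140), and so did testing with no filter on low values (log2 change -0.37, edgeR adjusted p = 0.0603).

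Smad2, the other transducer of TGF-beta (ENSMUSG00000024563, chromosome 18, 76241580 to 76310963, plus strand), had 3.77, 3.37 and 3.76 FPKM in S100a16+/- replicates 1 to 3, against 3.38, 4.06 and 3.74 FPKM in WT replicates 1 to 3. The groups overlapped, and the log2 change was 0.02 (SE 0.09, edgeR adjusted p = 0.943), with its sign turning under other scalings. Per length, Smad3 was thus the more abundant of the transducers in every library, by 14.8 against 3.63 FPKM on average in S100a16+/- and 19.8 against 3.73 FPKM in WT.

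Smad7, the inhibitory SMAD (ENSMUSG00000025880, chromosome 18, 75367529 to 75395935, plus strand), had 9.96, 9.22 and 2.47 FPKM in S100a16+/- replicates 1 to 3, against 5.23, 5.78 and 5.48 FPKM in WT replicates 1 to 3. Replicates 1 and 2, at 181% and 168% of the WT mean, were above every WT library, and replicate 3, at 44.9%, was below every one. Over all 6 libraries its log2 change was 0.45 (SE 0.50), short of the threshold (edgeR adjusted p = 0.654). Without replicate 3 Smad7 was higher, at a log2 change of 0.87 (standard error 0.07, edgeR adjusted p = 0.000612). Smad7 and Tgfb1 were the 2 members with this pattern of high, high and low.

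**Figure D3:**
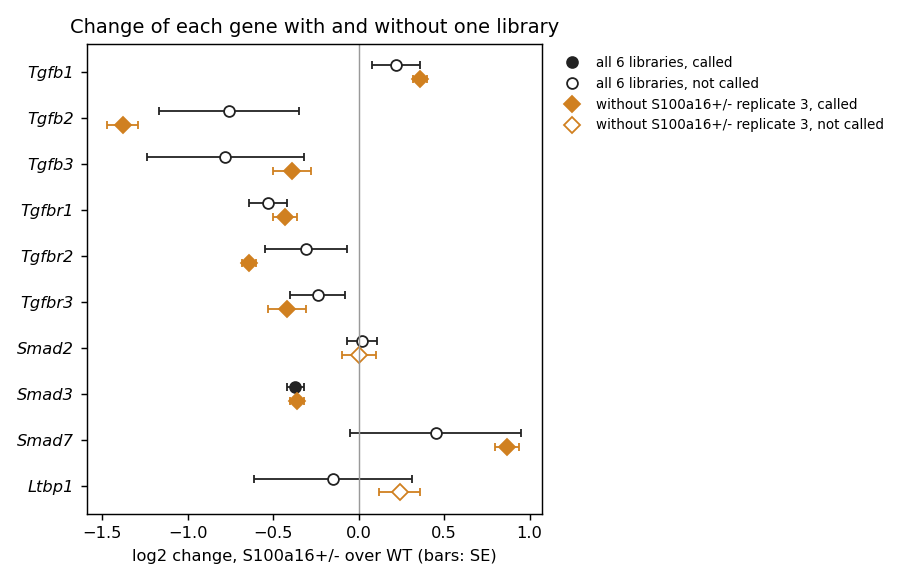
Log2 change of each gene, S100a16+/- over WT, with its SE, from the fit to all 6 libraries (circles) and without S100a16+/- replicate 3 (diamonds), filled where the edgeR adjusted p is under 0.05. Smad3 is at -0.37 and -0.36 in the 2 fits, Tgfb2 is at -0.76 and -1.38, and Ltbp1 changes sign from -0.15 to 0.24.

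Markers of other cells moved with several of these genes. The 15 endothelial markers summed to 870, 826 and 2016 FPKM in S100a16+/- replicates 1 to 3 and to 1678 to 1841 FPKM in the WT libraries, so that replicates 1 and 2 were below every WT library here as for Tgfb2 and Tgfbr2. None of the 12 endothelial markers tested was called over all 6 libraries with edgeR, 1 had an unadjusted p under 0.05, and DESeq2 called 0. Of all 12766 genes tested, 2807 had such a p and DESeq2 called 14.8%. Without replicate 3, 10 endothelial markers were lower and none higher, beside 16.5% of all genes lower and 15.8% higher. Not every marker followed this order: Oit3 had log2 ratios to its WT mean of 0.18, 0.10 and -1.14 in S100a16+/- replicates 1 to 3, and the untested Clec4g and Vwf were also lowest in replicate 3, at 0.468 and 0.155 FPKM. The log2 ratio of the endothelial cadherin gene Cdh5 to its WT mean was -1.13, -1.16 and 0.52 in S100a16+/- replicates 1 to 3, beside -1.39, -1.37 and 0.01 for Tgfb2 and -0.62, -0.67 and 0.20 for Tgfbr2. The collagen gene Col1a1 had ratios of 0.05, -0.05 and -3.23, beside -0.37, -0.41 and -2.16 for Tgfb3, 0.34, 0.13 and -1.56 for Ltbp1 and 0.92, 0.82 and -1.13 for Smad7. None of the 9 stellate markers tested was called (edgeR; 1 had an unadjusted p under 0.05, and DESeq2 called 1), and without replicate 3, 2 were higher and 1 lower. The hepatocyte markers found in the table, 14 of 15, summed to 27.3, 27.9 and 691 FPKM in S100a16+/- and 83.3 to 125 FPKM in WT, and none of the 10 tested was called (edgeR; 1 had an unadjusted p under 0.05, and DESeq2 called 1). Without replicate 3, of the 9 then tested, 1 was higher and 8 lower. The cholangiocyte and mesothelial markers summed to 297, 284 and 144 FPKM in S100a16+/- and 97.6 to 117 FPKM in WT, and 1 of the 7 tested rose, Spp1. Spp1 held most of the sum in S100a16+/-, at 226, 215 and 77.2 FPKM, but not in WT, at 30.2 to 35.8 FPKM. The mesothelial markers Upk3b and Wt1 were low in replicate 3 alone, at 11.1% and 12.9% of their WT means, as Tgfb3, Ltbp1 and Smad7 were lowest there. The other tested markers of that list did not move as one. In replicate 3 their log2 ratios to the WT mean were -1.96 for Sox9, -0.07 for Krt19, 1.21 for Spp1, 1.40 for Krt18 and 1.86 for Krt8. Of the 10 lymphocyte markers 9 were under 1 FPKM in every library, and the other, Cd4, was not called. Of the 10 neutrophil markers 8 were under 1 FPKM in every library, and 1 of the 2 tested rose, S100a8. The part of these cells in the levels of the TGF-beta genes was not tested. Smad3 had ratios of -0.33, -0.39 and -0.38.

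**Figure D4:**
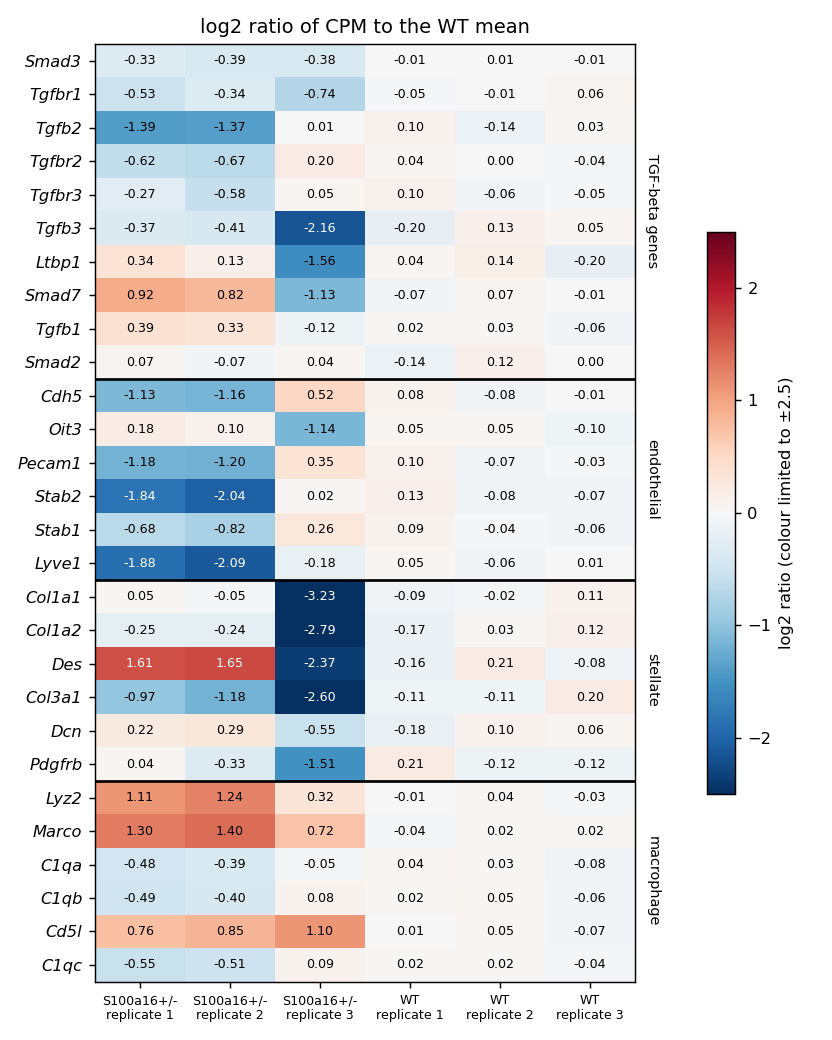
Log2 ratio of CPM (TMM-scaled counts relative to library size) to the WT mean in each library for the 10 genes and for the 6 most abundant tested markers of endothelial, stellate and macrophage cells. Smad3 is even across S100a16+/- libraries at -0.33 to -0.39, Tgfb2 is low only in replicates 1 and 2, as is Cdh5, and Tgfb3, Ltbp1 and Smad7 are lowest in replicate 3, as is Col1a1.

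Genes around the ligands and receptors were examined in lists, whose counts stand beside 1.61% of all genes tested lower and 2.85% higher. Of 15 tested genes of latency, matrix storage and activation, 1 fell: Thbs1, whose product thrombospondin 1 can release active TGF-beta from its latent form. Thbs1 had 511, 500 and 482 FPKM in S100a16+/- replicates 1 to 3, against 823, 756 and 793 FPKM in WT replicates 1 to 3, without overlap (log2 change -0.62, SE 0.10, edgeR adjusted p = 0.0317). Of 11 tested accessory receptors and ligand-binding proteins, 3 fell and none rose. They were Cd109, a membrane co-receptor that restrains TGF-beta signalling (2.28 ± 0.312 FPKM in S100a16+/- and 4.86 ± 0.266 FPKM in WT, SD, n = 3 each; log2 change -1.04, edgeR adjusted p = 0.0190), the biglycan gene Bgn, a TGF-beta-binding proteoglycan (160 ± 10.4 FPKM in S100a16+/- and 265 ± 7.83 FPKM in WT; log2 change -0.67, edgeR adjusted p = 0.0195), and Nrep (4.27 ± 0.0190 FPKM in S100a16+/- and 8.45 ± 0.783 FPKM in WT; log2 change -0.93, edgeR adjusted p = 0.0104). All 3, picked because they were called, were lower in every S100a16+/- library than in every WT library, as were 18.9% of all genes tested. The medians of these lists were -0.08 and -0.07. A single call among 15 genes, and the single calls in the lists of 28 and 8 genes below, stand beside a share of 4.46% of all genes called and are read as no result about those lists.

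None of 23 tested SMAD partners and regulators was called with edgeR. Of them 5 had an unadjusted p under 0.05, beside 2807 of all 12766 genes tested, and DESeq2 called 3, beside 14.8% of all genes. These counts are near the shares over all genes and are read as no result about the list. The smallest p-values were those of Smad5, a transducer of bone morphogenetic protein signals, with 6.84 ± 0.667 FPKM in S100a16+/- and 10.5 ± 1.02 FPKM in WT (log2 change -0.56, edgeR adjusted p = 0.0508), and of Ep300, an acetyltransferase that SMAD complexes recruit, with 9.85 ± 0.192 FPKM in S100a16+/- and 8.60 ± 0.170 FPKM in WT (log2 change 0.25, edgeR adjusted p = 0.0687). Of 28 tested genes known to respond to TGF-beta, 1 fell, the type V collagen gene Col5a1, with 16 ± 1.31 FPKM in S100a16+/- and 23.9 ± 0.555 FPKM in WT (SD, n = 3 each; log2 change -0.53, edgeR adjusted p = 0.0339). The median of that list was -0.23, and without S100a16+/- replicate 3, 10 of its genes were higher and 8 lower with a median of 0.05. Of 8 tested genes of the activin and inhibin branch 1 rose, Acvr1b, a type I receptor for activins, with 10.7 ± 0.839 FPKM in S100a16+/- and 7.52 ± 0.653 FPKM in WT (log2 change 0.56, edgeR adjusted p = 0.0450).

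With S100a16+/- replicate 3 omitted, 2 genes were higher and 4 lower for latency and activation, 2 and 4 for accessory proteins, 3 and 7 for SMAD partners and 2 and 2 for the activin branch, beside 15.8% of all genes higher and 16.5% lower. All 8 genes named in the lists above were called in that fit. They had been picked by their p over all 6 libraries, and that fit reuses the remaining ones, so these calls add no support. Of the 570 genes called over all 6 libraries, 538 were called in it in the same direction. With any one of the other 5 libraries left out, at most 1 gene of a list was called.

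**Figure D5:**
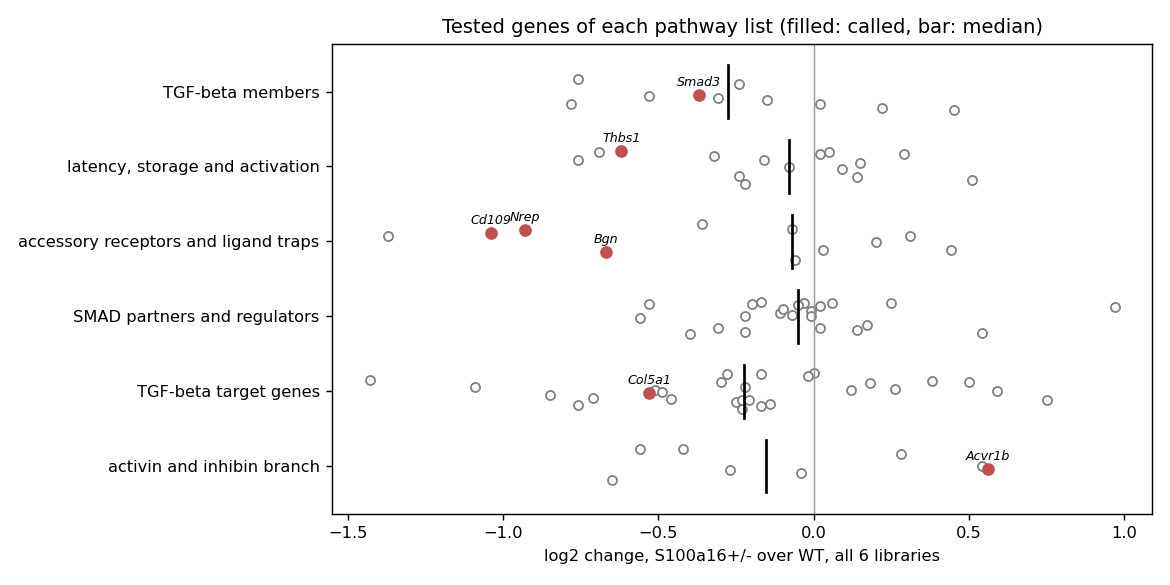
Log2 change, S100a16+/- over WT, of every tested gene in the 10-gene set and the pathway lists, with called genes filled and named and the list median as a bar. The medians run from -0.28 for the 10 genes to -0.05 for SMAD partners, and the called genes are Smad3, Thbs1, Cd109, Nrep, Bgn and Col5a1 on the lower side and Acvr1b on the higher side.

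The genes whose profile over the 6 libraries lay nearest to that of Smad3, by the mean absolute difference of log2 CPM ratios to the WT mean, were the splicing factor gene Srsf6 (0.0203), the histone-binding protein gene Rbbp7 (0.0219) and Pcif1 (0.0239). Srsf6 had 28.1 ± 0.267 FPKM in S100a16+/- and 37.3 ± 0.506 FPKM in WT (SD, n = 3 each), Rbbp7 had 28.5 ± 0.367 FPKM in S100a16+/- and 38.6 ± 0.801 FPKM in WT, and Pcif1 had 5.06 ± 0.229 FPKM in S100a16+/- and 6.80 ± 0.150 FPKM in WT. These 3 were chosen for this likeness among all genes tested.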

How the data were processed

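The series holds 6 RNA-seq libraries of hepatic stellate cell cultures, 3 S100a16+/- and 3 WT. Per the labels' protocols, poly(A) RNA was made into strand-marked libraries with molecular identifiers. The submitters' processing notes list HISAT2 2.0.4, StringTie 1.3.4d, cutadapt 1.9 and UMI-tools, and edgeR with DESeq2, in no stated role. For the build and the use of strand in counting, the sources used here give nothing. The authors deposited whole-number counts and FPKM values, with 0.0001 FPKM written for a count of 0. All 10 genes had the coordinates of GENCODE M21 (GRCm38).

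Genes with at least 1 FPKM in at least 3 libraries were tested on counts with TMM scaling and the quasi-likelihood test of edgeR 4.0.16 in R 4.3.3. The model held genotype alone, and p-values were adjusted by Benjamini-Hochberg across every tested gene. SEs were taken as the absolute log2 change over the square root of F. The fit was tested on simulated data. The simulation had no library standing apart as S100a16+/- replicate 3 does, so it cannot show how the fit behaves with such a library. The 10 genes, the pathway lists and the marker lists were chosen with earlier results of these data known. Named list genes are the up to 4 called with the smallest p, or, in a list with no call, the 2 lowest p-values. Xist and Ddx3y were picked after seeing their values. Nearest genes leave out predicted genes. Alternatives were DESeq2 1.42.0, limma 3.58.1 on log2(FPKM + 1) or log2(FPKM + 0.1), other scalings, no filter, the replicate number as a block, and each library left out. Promoters are from a RefSeq table (GRCm38.p6), in which 6 of the 10 genes were matched by symbol.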

Additional observations from a re-analysis of the deposited data

How the results depend on the processing

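Leaving out single libraries gave 25 to 4066 genes called, 0 to 8 of the 10 TGF-beta genes, 0 to 6 genes for latency and activation, 0 to 6 for accessory proteins, 0 to 10 for SMAD partners, 0 to 18 for target genes and 0 to 4 for the activin branch, with the highest count each time without S100a16+/- replicate 3; the cause was not tested. The log2 changes in these fits ran from 0.12 to 0.36 for Tgfb1, -1.38 to -0.52 for Tgfb2, -1.03 to -0.39 for Tgfb3, -0.63 to -0.43 for Tgfbr1, -0.64 to -0.15 for Tgfbr2, -0.42 to -0.10 for Tgfbr3, -0.05 to 0.07 for Smad2, -0.39 to -0.35 for Smad3, 0.15 to 0.87 for Smad7 and -0.48 to 0.24 for Ltbp1. Among other named genes, Col1a1 (-0.89 to 0.00), Oit3 (-0.39 to 0.14), Alb (-3.35 to 1.20), Upk3b (-0.88 to 0.01) and Csf3r (-0.01 to 0.21) changed sign without that replicate.

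Testing all 28336 genes with a count gave 243 calls, with 0 of the TGF-beta genes (Smad3 at -0.37, edgeR adjusted p = 0.0603), 0 target genes and 0 activin genes; more genes enter the adjustment there. DESeq2 gave 1888 calls, with 2 of the TGF-beta genes (Tgfbr1 at -0.53 beside Smad3), 2 latency genes, 3 SMAD partners and 5 target genes. Library totals and limma with either pseudocount also called 2 of the TGF-beta genes, with Tgfbr1 at -0.59, -0.57 and -0.59, called 0 activin genes, and called 2, 1 and 1 SMAD partners. RLE size factors called 1 SMAD partner. Smad2 took the other sign with library totals (-0.04) and limma (-0.03 with both pseudocounts), and Alb with limma (-1.40 and -1.53).

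With the replicate number as a block edgeR called 0 genes (smallest adjusted p 0.0595, 2207 genes with an unadjusted p under 0.05), so 0 of the TGF-beta genes and 0 in each list were called; Smad3 was at -0.37 (edgeR adjusted p = 0.164) and Alb at -2.04. Whether the numbers mark pairs of libraries cannot be told here. Deviations from the group means correlated at -0.16, 0.05 and -0.08 between same-numbered libraries, and 0 of 6 libraries correlated best with their own number. These correlations cannot settle it, because S100a16+/- replicate 3 stands apart and weighs on the deviations of its whole group. Among the shares, the Tgfb1 difference ran from 13.5 to 15.5 percentage points with a library left out and was 13.2 from counts. Without S100a16+/- replicate 3 the Tgfbr1 difference was 2.75 in place of -2.71 and that of Tgfbr2 -3.74 in place of 1.56. The direction of these 2 differences thus rests on that replicate. The SD of the Tgfbr1 and Tgfbr2 shares was 9.77 and 9.26 between S100a16+/- libraries and 1.65 and 1.06 between WT libraries. The lowest count of a TGF-beta gene in a library was 766, so low counts limit these comparisons little.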

Other observations

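Further genes of the pathway lists, chosen after their values were seen, split the S100a16+/- group in the same ways as the TGF-beta genes. None passed the test over all 6 libraries. All 5 passed without S100a16+/- replicate 3, beside 32.3% of all genes tested. They were chosen because replicate 3 differed from replicates 1 and 2, so this count adds no support. Smad6, the inhibitory SMAD of the bone morphogenetic protein branch, had 22.0, 21.9 and 6.22 FPKM in S100a16+/- replicates 1 to 3, against 10.5, 13.4 and 12.1 FPKM in WT replicates 1 to 3 (edgeR adjusted p = 0.573; without replicate 3 log2 change 0.93, edgeR adjusted p = 0.00192), high in replicates 1 and 2 and low in replicate 3 like Smad7. Ltbp2, a matrix relative of Ltbp1, had 29.4, 28.2 and 4.30 FPKM in S100a16+/- and 14.7, 16.6 and 14.1 FPKM in WT (edgeR adjusted p = 0.705; without replicate 3 log2 change 1.0, edgeR adjusted p = 0.000519). Nox4, an NADPH oxidase gene that TGF-beta induces in fibroblasts, had 0.987, 0.876 and 5.11 FPKM in S100a16+/- and 5.45, 4.43 and 5.30 FPKM in WT (edgeR adjusted p = 0.434; without replicate 3 log2 change -2.37, edgeR adjusted p = 0.000177), low in replicates 1 and 2 only, like Tgfb2. Smad1 had 5.21, 5.24 and 12.5 FPKM in S100a16+/- and 10.4, 9.42 and 11.4 FPKM in WT (edgeR adjusted p = 0.575; without replicate 3 log2 change -0.93, edgeR adjusted p = 0.00124), and the activin subunit gene Inhbb had 11.2, 8.95 and 35.9 FPKM in S100a16+/- and 31.0, 27.0 and 27.2 FPKM in WT (edgeR adjusted p = 0.592; without replicate 3 log2 change -1.43, edgeR adjusted p = 0.000743).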
